A study of Mus musculus with 11 samples.

Results

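Genomic imprinting leaves a gene active from the copy inherited from 1 parent and silent on the other, and the transcripts of 43 imprinted genes that lie outside the Dlk1-Dio3 cluster were followed in mouse pluripotent cells and in the cells they were made from. The 43 genes were taken by name, as a list of imprinted genes of other loci, and not by a rule on their values. Earlier results of these data were known when the list was made. Of them, 41 were measured by 100 probe sets that carry that gene's symbol alone, among 18193 genes and 34945 such probe sets in all. Zrsr1, a retrogene inside Commd1, had no probe set in the annotation used, and the H19 locus is read only by a probe set annotated with both Mir675 and H19, which was kept apart and is not counted.

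RNA was measured on 11 Affymetrix mouse arrays. ViPSC and TiPSC are induced pluripotent stem cells, the former reprogrammed from heart ventricle myocytes and the latter from fibroblasts of the tail tip, and ESC are embryonic stem cells labelled as genetically matched to them, with 3 arrays each. The cells of origin, myocytes of the ventricle (VM) and fibroblasts of the tail tip (TTF), came from pups at postnatal day 1 and have 1 array each. All groups share a C57/Bl and BlackSwiss mixed background, and no other allele or agent is named in the labels used here. The pluripotent cells were kept with LIF on irradiated mouse embryonic feeder fibroblasts, most of which were to be removed by letting them attach to a dish before RNA was taken. Nothing in the labels tells whether arrays of 1 group stand for separate lines, clones or cultures, and p values then measure only how these samples spread, which may be technical.

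Imprints are methylation marks laid down at control regions in the egg or the sperm, and most survive the wave of demethylation in the early embryo. Many of the genes they control set the growth of the fetus and the placenta: as a broad pattern, genes expressed from the paternal copy favour growth and genes expressed from the maternal copy restrain it. Pluripotent cells in culture can lose or gain methylation at control regions, so imprinted transcripts are often examined in induced cells. The arrays measured RNA only. Neither methylation nor the parental origin of a transcript was measured, and a change in level cannot be assigned to an allele.

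The promoter windows of Mest, Magel2 and Igf2 are shown because these genes differed between the induced cells, Mest and Magel2 in one direction and Igf2 in the other. Each is the 250 bases before a RefSeq transcript start in GRCm38.p6 (for genes with several starts, the window with the most CpG), 5′ to 3′ on the gene's strand, with each CpG in capitals. The Mest window is chr6:30737800-30738049 on the plus strand, the Magel2 window chr7:62376729-62376978 on the plus strand, and the Igf2 window chr7:142658805-142659054 on the minus strand.
Mest: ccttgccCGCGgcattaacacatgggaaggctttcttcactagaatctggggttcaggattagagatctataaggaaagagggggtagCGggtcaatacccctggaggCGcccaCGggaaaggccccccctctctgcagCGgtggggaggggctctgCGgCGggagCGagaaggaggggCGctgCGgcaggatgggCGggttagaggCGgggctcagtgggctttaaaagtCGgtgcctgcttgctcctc
Magel2: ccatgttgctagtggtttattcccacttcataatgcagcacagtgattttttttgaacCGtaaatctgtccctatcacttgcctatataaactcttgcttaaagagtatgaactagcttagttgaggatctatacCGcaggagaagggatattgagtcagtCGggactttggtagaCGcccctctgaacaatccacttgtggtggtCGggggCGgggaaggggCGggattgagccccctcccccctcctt
Igf2: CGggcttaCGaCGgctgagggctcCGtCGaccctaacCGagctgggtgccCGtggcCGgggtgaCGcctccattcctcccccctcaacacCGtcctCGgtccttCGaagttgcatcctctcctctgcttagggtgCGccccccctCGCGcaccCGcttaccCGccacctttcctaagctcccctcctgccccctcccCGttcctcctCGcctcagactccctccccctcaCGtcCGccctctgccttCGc
The Mest window holds 14 CpG and is 62.4% G or C, the Magel2 window holds 7 CpG and is 48.8% G or C, and the Igf2 window holds 22 CpG and is 68.8% G or C. A script searched both strands for the letters TGCCGC, the hexamer that the imprint-protecting zinc finger protein ZFP57 reads when its CpG is methylated. The Mest window has 2 matches, which start at positions 9 and 184 from its 5′ end, and the windows of Magel2 and Igf2 have 0. Entries were found for 36 of the 43 genes, and 7 of these 36 genes (19.4%) had a match in their window with the most CpG, beside 9.15% of 27025 genes. Over all 32851 windows the share was 8.68%, and over the 58 windows of the listed genes it was 15.5%. The median was 14 CpG per window for the 36 genes and 6 for all genes. A match is a run of letters and not a site shown to be bound. The table held no entry for H19, Sgce, Impact, Peg10, Trappc9, Cdkn1c or Kcnq1.

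All levels below are log2 values from RMA, a method that normalizes arrays to each other and compresses differences near background, and a group mean of at least 7 is called expressed. By that rule 25 of the 41 genes were expressed in ViPSC, 25 in TiPSC, 26 in ESC, 22 in TTF and 27 in VM. That is 61% in ViPSC and 65.9% in VM, beside 41.2% and 40.7% of all genes. The identity of the groups was checked against marker genes. All 10 pluripotency markers were at 7 or above in each of the 9 pluripotent arrays, and all 10 ventricular myocyte markers were in VM and in no pluripotent array. Of 15 fibroblast markers, 8 to 10 were at 7 or above in the pluripotent arrays, and their summed linear level was 13138 to 13674 in ViPSC, 12602 to 17460 in TiPSC and 11015 to 13808 in ESC, against 208720 in TTF. VM also held fibroblast markers (summed level 56174, 11 of 15 at 7 or above) and all 8 endothelial markers. Features of single arrays also touch results below. Primitive endoderm markers summed to 1813 in ESC 1 and to 542 and 577 in ESC 2 and ESC 3. The expressed genes of chromosome 11 were shifted together, by a median of 0.26 to 0.27 in each ViPSC array, 0.19 in ESC 3 and between -0.20 and -0.17 in ESC 1, ESC 2 and the TiPSC arrays. Larger shifts lay on chromosomes that hold none of the 43 genes: on the X chromosome 0.65 in ESC 2 and ESC 3 and between -0.20 and -0.12 in the other 7 pluripotent arrays, and on chromosome 8 0.45 in TiPSC 3 and between -0.09 and -0.01 in the others. In bulk RNA, fewer cells with a transcript and less transcript per cell cannot be told apart.

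The first comparison asks whether imprinted transcripts differ between induced cells of cardiac and of fibroblast origin. Between ViPSC and TiPSC, 6 of the 41 genes passed (limma, adjusted p under 0.05 over all 18193 genes), beside 5.63% of all genes. Igf2, Ddc and Slc38a4 were higher in ViPSC, where 3.2% of all genes were called higher, and Mest, Sgce and Magel2 were lower, where 2.43% were called lower. Against ESC, ViPSC were higher in 2 of the 41 genes, Igf2 and Ddc, and lower in 0, beside 2.14% of all genes called, 1.45% higher and 0.693% lower. TiPSC differed from ESC in 4 of the 41, beside 0.632% of all genes: Mest, Sgce and Magel2 were higher (0.291% of all genes were called higher) and Impact was lower (0.341% lower). Each pair of these comparisons shares the arrays of a group, so the 3 lists are not independent of each other.

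The counts depend on which arrays enter. Between ViPSC and TiPSC the count was 3 without ViPSC 1, ViPSC 2 or TiPSC 1 (1.32%, 1.14% and 1.4% of all genes called), 10 without ESC 1 (11%), 14 without ESC 3 (8.87%), and 16 when only the 6 arrays compared were fitted (14.4%). For ViPSC against ESC it was 0 without any 1 of the ViPSC arrays or ESC 2 (0.121% to 0.341% of all genes), 1 without TiPSC 1 or TiPSC 2 (0.824% and 1.19%), 3 without ESC 3 (3.34%) and 10 without ESC 1 (13.8%). For TiPSC against ESC it was 0 without TiPSC 1 (0.066%), 1 without any 1 of the ViPSC arrays, TiPSC 2 or ESC 2 (0.0934% to 0.165%), 2 without ESC 3 (0.313%) and 16 without ESC 1 (16.7%).

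The sizes of the differences can be read beside those of all genes. The median absolute difference of the 41 genes was 0.22 between ViPSC and TiPSC (0.13 for all genes), 0.20 between ViPSC and ESC (0.12) and 0.30 between TiPSC and ESC (0.13). The signed medians were close to 0 in all 3 comparisons, at -0.08, 0.03 and 0.01. By the parental copy that textbooks give as active, 5 of 21 measured paternally expressed genes passed between ViPSC and TiPSC, 2 higher and 3 lower. Against ESC, 1 of the 21 was higher in ViPSC, and 3 were higher and 1 lower in TiPSC. None of the 19 maternally expressed genes passed in the 3 comparisons by limma with the shared spread and 1 probe set per gene. These comparisons called 5.63%, 2.14% and 0.632% of all genes. Of the 19, 5, 5 and 6 had an unadjusted p under 0.05, a share of 26.3%, 26.3% and 31.6% beside 21%, 17.2% and 18.1% of all genes. Of the 21 paternally expressed genes, 10, 6 and 11 had one (47.6%, 28.6% and 52.4%). In the fit over every probe set, Ube3a, 1 of the 19, passed between ViPSC and TiPSC and between ViPSC and ESC. That fit called 4.68% and 1.54% of probe sets. The probe set of Mir675 and H19, a maternally expressed locus, is not among the 19. It was called lower than ESC in both kinds of induced cell, beside 1.56% and 0.262% of probe sets called. When only the 6 arrays of ViPSC and TiPSC were fitted, 7 maternally and 8 paternally expressed genes passed, in a fit that called 14.4% of all genes. Without ESC 1 these counts were 2 and 7 (11% of all genes), and without ESC 3 they were 5 and 8 (8.87%). Ddc, whose active copy differs between tissues, was left unclassed.

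**Figure D1:**
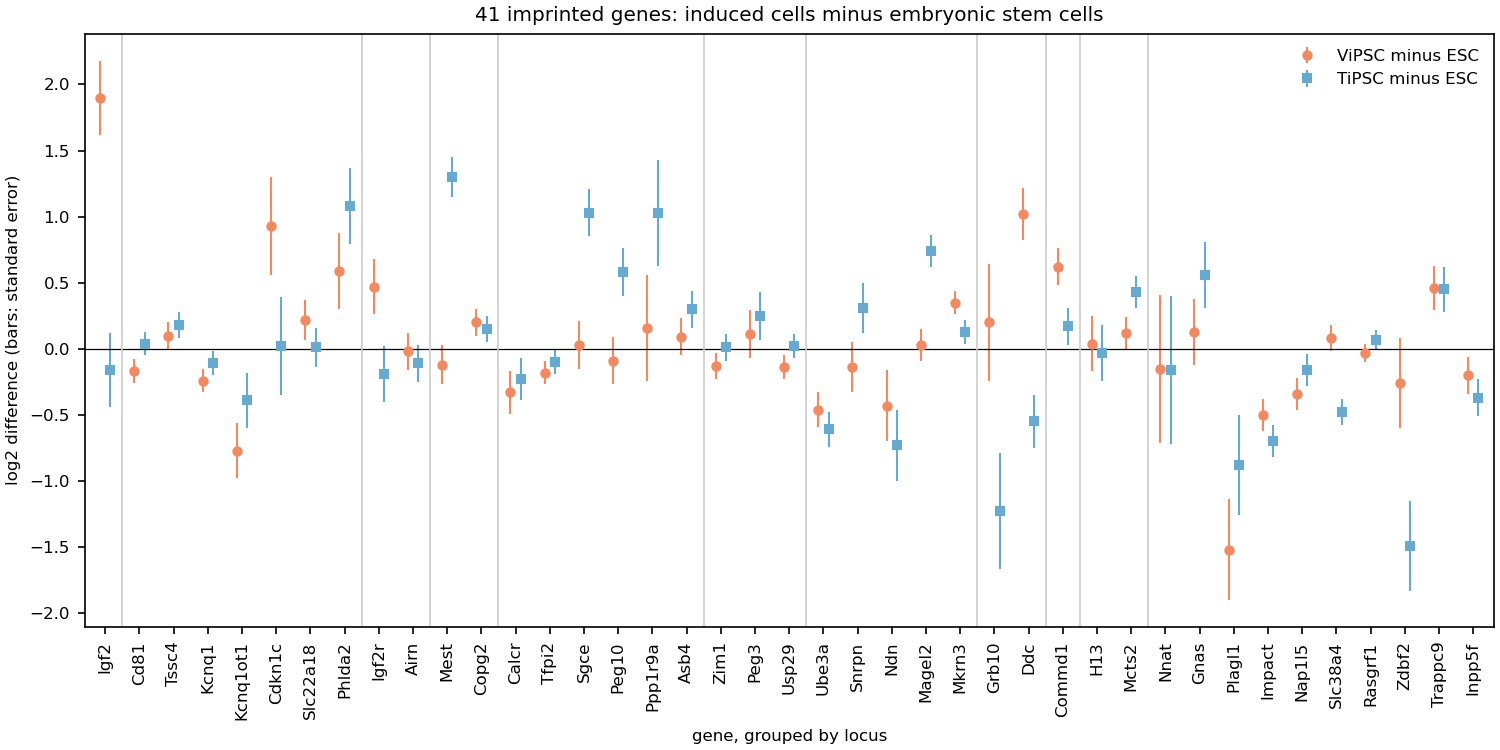
Log2 differences of the 41 measured imprinted genes for ViPSC minus ESC (circles) and TiPSC minus ESC (squares), with genes on the x axis grouped by locus between grey lines; each point is a difference of 2 means of 3 arrays and each bar its standard error from limma. Igf2 reaches 1.90 in ViPSC and -0.16 in TiPSC, and Mest -0.12 in ViPSC and 1.30 in TiPSC, in comparisons that share the ESC arrays.

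Igf2, on chromosome 7, encodes insulin-like growth factor 2, the fetal growth factor that is expressed from the paternal copy. It measured 11.05, 11.10 and 11.06 in ViPSC, 8.71, 8.69 and 9.64 in TiPSC and 9.62, 9.18 and 8.72 in ESC. The ViPSC arrays lay within 0.05 of each other and above every other pluripotent array. VM, the source of ViPSC, had 13.94, and TTF had 8.32, close to the TiPSC and ESC arrays. ViPSC exceeded ESC by 1.90 ± 0.28 (SE, adjusted p = 0.0162), and TiPSC and ESC differed by -0.16 ± 0.28 (adjusted p = 0.807). The difference between ViPSC and TiPSC passed under all 18 alternative settings. The difference from ESC was lost without ViPSC 1, 2 or 3 (adjusted p 0.087 to 0.0986) and without ESC 2 (0.0602), and it held under 13 of 18 alternatives. The second Igf2 probe set stayed at 3.77 to 4.37 in the pluripotent arrays, too low to compare, and with the mean of both the differences were 1.15 from TiPSC and 1.09 from ESC, both still called (adjusted p = 0.00618 and 0.0159).

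The probe set annotated with Mir675 and H19 reads the neighbouring locus, whose long noncoding RNA H19 is the host of the microRNA and is expressed from the maternal copy under the same control region as Igf2. It was read in a fit over 35877 probe sets with 1 or several symbols, chosen after the data were seen. The probe set measured 9.15, 9.53 and 9.43 in ViPSC, 8.96, 8.62 and 8.39 in TiPSC and 11.47, 11.61 and 11.01 in ESC. Both source cells were higher, at 12.60 in TTF and 13.29 in VM. Every induced array was thus below every ESC array and below both source arrays. It was lower than in ESC by -1.99 ± 0.19 in ViPSC (adjusted p = 0.00519) and by -2.70 ± 0.19 in TiPSC (adjusted p = 0.00107), in comparisons that called 1.56% and 0.262% of these probe sets and that share the ESC arrays. ViPSC and TiPSC differed by 0.71 ± 0.19, which did not pass (adjusted p = 0.0675). The difference of ViPSC from ESC was lost without ViPSC 3 (0.0502). In ViPSC, then, the Igf2 level was above that of ESC while this probe set was below it, and in TiPSC Igf2 did not pass against ESC and this probe set was lower.

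**Figure D2:**
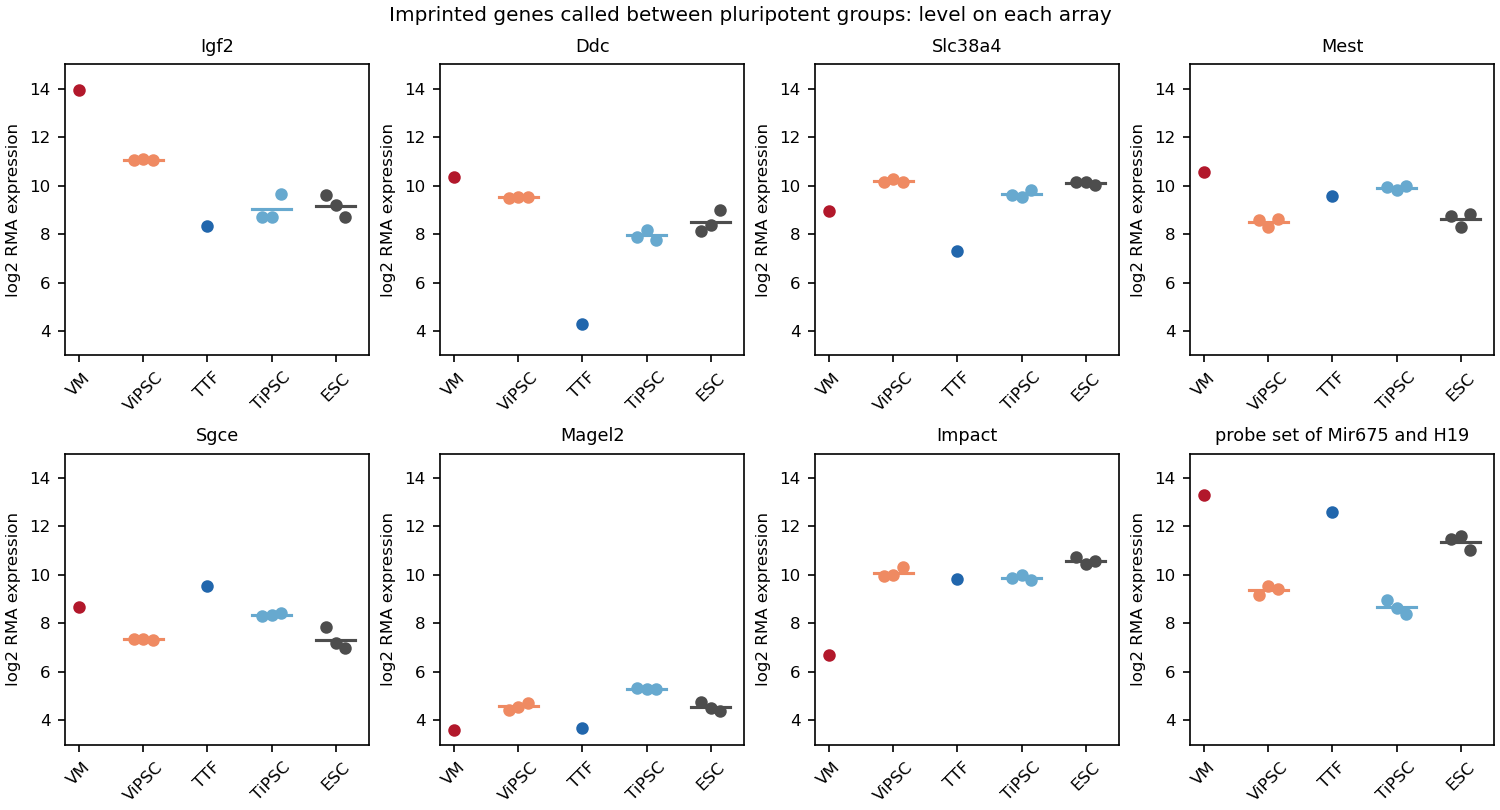
Log2 RMA level in each of the 11 arrays for the 7 imprinted genes called in at least 1 comparison of ViPSC, TiPSC and ESC, and for the probe set annotated with Mir675 and H19; each point is 1 array, each short line a mean of 3 arrays, and TTF and VM have 1 array each. The 3 ViPSC arrays sit above all TiPSC arrays for Igf2, Ddc and Slc38a4 and below them for Mest, Sgce and Magel2.

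Mest, on chromosome 6, encodes an endoplasmic reticulum protein of the hydrolase family and is expressed from the paternal copy in embryonic mesoderm. It measured 8.56, 8.30 and 8.63 in ViPSC, 9.95, 9.82 and 9.98 in TiPSC and 8.73, 8.29 and 8.84 in ESC. The TiPSC arrays stood above all others among the pluripotent cells, and those of ViPSC and ESC overlapped. TiPSC exceeded ESC by 1.30 ± 0.15 (adjusted p = 0.0108), and ViPSC differed from ESC by -0.12 ± 0.15 (adjusted p = 0.748). The TiPSC level was near that of TTF (9.57), and VM had 10.57. Against ViPSC the call held under all 18 alternatives, and against ESC it was lost without TiPSC 1 (adjusted p = 0.0645) and with only 6 arrays fitted (0.103). Copg2, a coat protein gene that overlaps the end of Mest on the other strand, had group means of 8.77 ± 0.09, 8.72 ± 0.13 and 8.57 ± 0.13 (SD, n = 3 arrays) for ViPSC, TiPSC and ESC and did not pass.

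Also on chromosome 6, Sgce, which encodes epsilon-sarcoglycan of the membrane complex that links muscle cells to their matrix, shares a control region with Peg10. Sgce measured 7.37, 7.37 and 7.32 in ViPSC, 8.30, 8.35 and 8.41 in TiPSC and 7.84, 7.17 and 6.98 in ESC, with 9.54 in TTF and 8.67 in VM. The TiPSC arrays were again above all other pluripotent arrays and below TTF. Against ESC the difference was 1.03 ± 0.18 and lay just inside the threshold (adjusted p = 0.0499); it passed under 6 of 18 alternatives and was lost when any single array other than ESC 1 was left out (adjusted p 0.0779 to 0.186). Against ViPSC it was lost without ViPSC 1, 2 or 3 (adjusted p 0.0769 to 0.0777), TiPSC 1 (0.0686) or TiPSC 2 (0.0551). With the mean of its 2 probe sets, of which the second was at 3.66 to 3.90, Sgce differed by -0.49 between ViPSC and TiPSC (adjusted p = 0.0465) and by 0.53 between TiPSC and ESC (0.0944). Peg10, a gene derived from a retrotransposon and needed for the placenta, was below 7 in every group, with means of 5.11 ± 0.15 in ViPSC, 5.78 ± 0.31 in TiPSC and 5.20 ± 0.27 in ESC. Its difference between ViPSC and TiPSC of -0.67 ± 0.18 just missed the threshold (adjusted p = 0.0626). Ppp1r9a, the neighbouring gene of the actin-binding protein neurabin, measured 7.37, 7.30 and 7.30 in ViPSC, 8.18, 8.23 and 8.15 in TiPSC and 7.99, 7.49 and 6.01 in ESC. The spread of the ESC arrays is part of the shared error, and the difference of -0.86 ± 0.40 between ViPSC and TiPSC did not pass (adjusted p = 0.253). Calcr, the calcitonin receptor gene, Tfpi2, a protease inhibitor gene, and Asb4, a gene of an ankyrin repeat protein, had pluripotent means between 3.06 and 4.21, and none passed.

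On chromosome 7, the genes of the Prader-Willi and Angelman region are mostly active from the paternal copy and are known for their part in the brain. Magel2, which encodes a partner of ubiquitin ligases, measured 4.44, 4.56 and 4.73 in ViPSC, 5.32, 5.29 and 5.27 in TiPSC and 4.77, 4.50 and 4.37 in ESC. The TiPSC arrays were the highest of the pluripotent cells, while TTF had 3.69 and VM 3.59. All these values are below 7, where RMA compresses differences. ViPSC were lower than TiPSC by -0.72 ± 0.12 (adjusted p = 0.0119), and TiPSC exceeded ESC by 0.74 ± 0.12 (adjusted p = 0.0337). The first call was lost without ViPSC 1, ViPSC 2 or TiPSC 1 (adjusted p 0.055 to 0.0609), and the second held under 7 of 17 alternatives and was lost when any single array other than ESC 1 was left out (0.0559 to 0.143).

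The region's best known transcript, Snrpn, encodes a splicing protein together with the small upstream frame Snurf. The probe set of Snrpn alone was low, with means of 5.53 ± 0.16 in ViPSC, 5.97 ± 0.09 in TiPSC and 5.67 ± 0.45 in ESC, and did not pass. Of the 6 probe sets annotated with Snurf and Snrpn together, 4 were at 9.84 or above in all pluripotent arrays. Between ViPSC and TiPSC, 3 of these 4 passed, all lower in ViPSC, in a fit that called 4.65% of its probe sets. The one whose name carries no mark of shared sequence measured 10.83, 10.88 and 11.02 in ViPSC, 11.57, 11.73 and 11.80 in TiPSC and 10.96, 11.02 and 11.55 in ESC. The TiPSC arrays were above all others, though the lowest, at 11.57, was barely over ESC 3 at 11.55. The difference between the induced cells was -0.79 ± 0.15 (adjusted p = 0.0231). The other differences were -1.06 ± 0.23 (adjusted p = 0.0368), -0.75 ± 0.15 (0.0282) and, without a call, -0.66 ± 0.17 (0.0607). Each of the 3 calls was lost without any 1 of the 6 induced arrays (adjusted p 0.0595 to 0.136). In the rest of the 4 bright probe sets, ESC 3 was above at least 1 TiPSC array. Between TiPSC and ESC none of the 4 passed in the same fit (adjusted p 0.163 to 0.287).

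Ube3a, the ubiquitin ligase gene of Angelman syndrome, showed probe sets that disagree. Its brightest probe set measured 10.40, 10.18 and 10.12 in ViPSC, 10.11, 9.99 and 10.15 in TiPSC and 10.52, 10.95 and 10.62 in ESC and did not pass. A second one measured 7.27, 7.46 and 7.42 in ViPSC, 7.80, 7.80 and 8.05 in TiPSC and 7.83, 8.04 and 8.17 in ESC. In the fit over every probe set, which called 4.68% between ViPSC and TiPSC and 1.54% between ViPSC and ESC, this probe set was lower in ViPSC by -0.50 ± 0.11 and -0.63 ± 0.11 (adjusted p = 0.0413 and 0.0356). Ndn, the gene of the growth suppressor necdin, had means of 8.42 ± 0.07, 8.12 ± 0.31 and 8.85 ± 0.61 in ViPSC, TiPSC and ESC, and Mkrn3, a ubiquitin ligase gene tied to the timing of puberty, 5.91 ± 0.12, 5.69 ± 0.06 and 5.56 ± 0.10. Neither passed.

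Ddc and Grb10 lie next to each other on chromosome 11. Ddc encodes the decarboxylase that makes dopamine and serotonin, and a form of it is imprinted in the developing heart. It measured 9.48, 9.54 and 9.53 in ViPSC, 7.89, 8.17 and 7.77 in TiPSC and 8.11, 8.38 and 8.98 in ESC. Each ViPSC array was above each other pluripotent array, and VM had 10.37 where TTF had 4.27. The difference was 1.57 ± 0.20 between ViPSC and TiPSC (adjusted p = 0.00424) and 1.02 ± 0.20 between ViPSC and ESC (adjusted p = 0.039). The expressed genes of chromosome 11 as a whole differed by a median of 0.46 and 0.32 in these comparisons, over 644 genes. With each array's shift of that chromosome subtracted, Ddc still differed by 1.10 (adjusted p = 0.00539) and 0.70 (adjusted p = 0.048). Against TiPSC the call held under all 18 alternatives. Against ESC it was lost without ViPSC 1, 2 or 3 (adjusted p 0.143 to 0.168), TiPSC 1 (0.0751), TiPSC 2 (0.0567) or ESC 2 (0.14) and with only 6 arrays fitted (0.0939), and it held under 10 of 18 alternatives. The second Ddc probe set was at 3.29 to 3.66 in the pluripotent arrays and at 8.15 in VM, and with the mean of both the differences were 0.88 and 0.65, both still called (adjusted p = 0.00594 and 0.0308).

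Grb10, the gene of an adaptor that dampens insulin and growth factor signalling, measured 9.12, 9.04 and 9.11 in ViPSC, 7.67, 7.61 and 7.71 in TiPSC and 10.01, 8.93 and 7.73 in ESC. The induced groups did not overlap. The ESC arrays spanned the ViPSC arrays, and all of them lay above the TiPSC arrays, ESC 3 only just. TiPSC differed from ESC by -1.23 ± 0.44, without a call (adjusted p = 0.195). The difference of 1.42 ± 0.44 between ViPSC and TiPSC did not pass with the spread of ESC included (adjusted p = 0.0968). Both source cells were far higher, at 12.34 and 12.46. Commd1, a gene of copper handling elsewhere on chromosome 11, had means of 11.15 ± 0.04, 10.70 ± 0.15 and 10.52 ± 0.28. Its difference between ViPSC and TiPSC was 0.45, close to the chromosome's median of 0.46. Between ViPSC and ESC it was 0.62, above the chromosome's median of 0.32. Neither difference passed (adjusted p = 0.0969 and 0.0594).

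Among genes that stand alone at their locus, Slc38a4, which encodes an amino acid transporter of placenta and liver, measured 10.15, 10.27 and 10.16 in ViPSC, 9.59, 9.51 and 9.81 in TiPSC and 10.15, 10.16 and 10.04 in ESC. The TiPSC arrays were the lowest and those of ViPSC and ESC overlapped. The difference between ViPSC and TiPSC was 0.56 ± 0.10 (adjusted p = 0.0137), and TiPSC against ESC, at -0.48 ± 0.10, missed the threshold (adjusted p = 0.0696). The call was lost without ViPSC 1, 2 or 3 (adjusted p 0.058 to 0.0732) or TiPSC 1 (0.0638). The second Slc38a4 probe set differed by 0.57 between ViPSC and TiPSC (adjusted p = 0.0714 in the fit over every probe set).

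Impact, on chromosome 18, encodes an inhibitor of the amino acid sensor kinase GCN2. It measured 9.93, 9.97 and 10.32 in ViPSC, 9.87, 9.98 and 9.80 in TiPSC and 10.73, 10.44 and 10.56 in ESC. All 6 induced arrays lay below the ESC arrays. TiPSC were lower by -0.70 ± 0.12 (adjusted p = 0.0492), and ViPSC, at -0.50 ± 0.12, did not pass (adjusted p = 0.0776). With the mean of the 3 Impact probe sets it was -0.41 in TiPSC (adjusted p = 0.162). The TiPSC call held under 6 of 18 alternatives and was lost when any single array other than ESC 1 was left out (0.0632 to 0.197). Zdbf2, a zinc finger gene of chromosome 1, measured 9.07, 9.17 and 9.31 in ViPSC, 7.76, 7.30 and 8.76 in TiPSC and 9.85, 9.53 and 8.94 in ESC. Its TiPSC arrays were the lowest, with a difference of -1.49 ± 0.34 from ESC and of 1.24 ± 0.34 between ViPSC and TiPSC, neither of which passed (adjusted p = 0.0929 and 0.0699).

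Plagl1, the gene of a zinc finger factor that regulates other imprinted genes, measured 8.88, 8.98 and 9.24 in ViPSC, 10.11, 9.57 and 9.32 in TiPSC and 9.66, 10.58 and 11.42 in ESC. ViPSC were the lowest, by -1.52 ± 0.38 against ESC, without a call (adjusted p = 0.0793). On chromosome 2, H13, the signal peptide peptidase gene, Mcts2, a retrogene inside H13 that resembles its parent gene Mcts1 so that its probe set may read both, and Gnas, the stimulatory G protein gene, had means of at least 8.45, 9.92 and 10.82 in the pluripotent groups and did not pass. Nnat, the neuronatin gene, was below 7 in mean and scattered in all 3 groups (SD 0.60 to 0.96). Nap1l5 and Rasgrf1, a Ras exchange factor gene, had means between 3.77 and 4.93. Trappc9, of a vesicle tethering complex, and Inpp5f, a phosphoinositide phosphatase gene, had means between 7.0 and 7.54. None of these passed.

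The Kcnq1 domain of chromosome 7 is silenced on the paternal copy by the long noncoding RNA Kcnq1ot1, and most of its genes are active from the maternal copy. None of its 7 listed genes, Kcnq1ot1, Cdkn1c, Phlda2, Kcnq1, Slc22a18, Tssc4 and Cd81, passed in the 3 comparisons. Kcnq1ot1 had means of 6.25 ± 0.21 in ViPSC, 6.64 ± 0.31 in TiPSC and 7.02 ± 0.36 in ESC, a difference of -0.77 ± 0.21 for ViPSC against ESC (adjusted p = 0.0976). Cdkn1c, which encodes the cell cycle inhibitor p57, measured 8.85, 8.41 and 8.59 in ViPSC, 7.36, 7.52 and 8.22 in TiPSC and 7.97, 8.30 and 6.77 in ESC. Its ViPSC arrays were above all others, at 0.91 ± 0.37 over TiPSC, without a call (adjusted p = 0.193). Phlda2, a gene that restrains growth of the placenta, measured 10.38, 10.18 and 10.45 in ViPSC, 10.75, 10.68 and 11.07 in TiPSC and 10.31, 9.98 and 8.95 in ESC. TiPSC were the highest, at 1.08 ± 0.29 over ESC (adjusted p = 0.124). The potassium channel gene Kcnq1 itself stayed at means of 3.93 to 4.17, Slc22a18, a transporter gene, at 5.61 to 5.83, Tssc4 at 8.06 to 8.24 and Cd81, the gene of a cell surface tetraspanin, at 11.56 to 11.77.

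At the remaining loci, on chromosomes 17 and 7, Igf2r encodes the receptor that clears IGF2 and is active from the maternal copy, and its antisense transcript Airn silences the paternal one. Igf2r measured 9.96, 9.47 and 9.60 in ViPSC, 9.05, 8.98 and 9.01 in TiPSC and 9.34, 9.60 and 8.69 in ESC. The ViPSC arrays were above the TiPSC arrays by 0.66 ± 0.21, without a call (adjusted p = 0.109). The second Igf2r probe set went the other way, with means of 8.72 in ViPSC, 8.87 in TiPSC and 8.68 in ESC. Its difference between ViPSC and TiPSC was -0.15 ± 0.08, also without a call. Airn was low, at means of 4.30 to 4.41. Peg3, a zinc finger gene expressed from the paternal copy, had means of 11.26 ± 0.04, 11.40 ± 0.11 and 11.15 ± 0.43 in ViPSC, TiPSC and ESC, while its neighbours Usp29 and Zim1 were at 3.35 to 3.61. None of these passed.

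The source cells have 1 array each, so differences from them were only described, with 2 log2 units (4-fold) as the limit, to be passed by all 3 induced arrays. ViPSC were higher than VM by that limit in 2 of the 41 genes, beside 6.44% of all genes, and lower in 8, beside 6.76%. Phlda2 (by 5.27) and Impact (by 3.38) were higher. Plagl1, Airn, Kcnq1, Grb10, Asb4, Tfpi2, Igf2 and Gnas were lower, by -4.07 for Tfpi2 to -2.47 for Gnas. TiPSC were higher than TTF in 7 genes, beside 4.51%, and lower in 5, beside 6.01%. Phlda2 (6.41), Ppp1r9a (4.22), Ddc (3.68), Peg3 (3.43), Zdbf2 (2.88), Slc38a4 (2.32) and Mcts2 (2.17) were higher, and Grb10 (-4.68), Tfpi2 (-4.12), Ndn (-3.19), Igf2r (-2.76) and H13 (-2.49) were lower. Phlda2 was thus low in both source cells (4.42 in TTF and 5.06 in VM) and at 8.95 or above in every pluripotent array. Grb10 and Tfpi2 were lower by the limit in both kinds of induced cell than in their source. Igf2r was also lower in ViPSC than in VM, by -2.28 in mean, with 1 array just short of the limit. Its second probe set differed by -2.33 in ViPSC, past the limit, and by -1.95 in TiPSC, short of it.

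The source cells also differed from each other. VM was higher than TTF in 8 of the 41 genes, beside 4.68% of all genes, and lower in 2, beside 4.62%. Ddc (6.10), Igf2 (5.62), Kcnq1 (3.72), Ppp1r9a (3.53), Asb4 (3.02), Airn (2.91), Zdbf2 (2.55) and Plagl1 (2.32) were higher in VM, and Impact (-3.14) and Ndn (-2.84) were lower. VM contained endothelial markers with a summed level of 11846 against 306 in TTF, and their part in these differences was not tested. For 2 of the 6 genes called between the induced groups, Igf2 and Ddc, the array of the matching source was apart by the limit and in the same direction, by their brightest probe sets. How often this held among all genes called between ViPSC and TiPSC was not counted. The second Ddc probe set, at 8.15 in VM, had means of 3.62 in ViPSC and 3.43 in TiPSC. Mest (1.0), Sgce (-0.87), Magel2 (-0.09) and Slc38a4 (1.64) differed by less than the limit between VM and TTF. Mest was lower in ViPSC than in TiPSC while VM was above TTF.

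**Figure D3:**
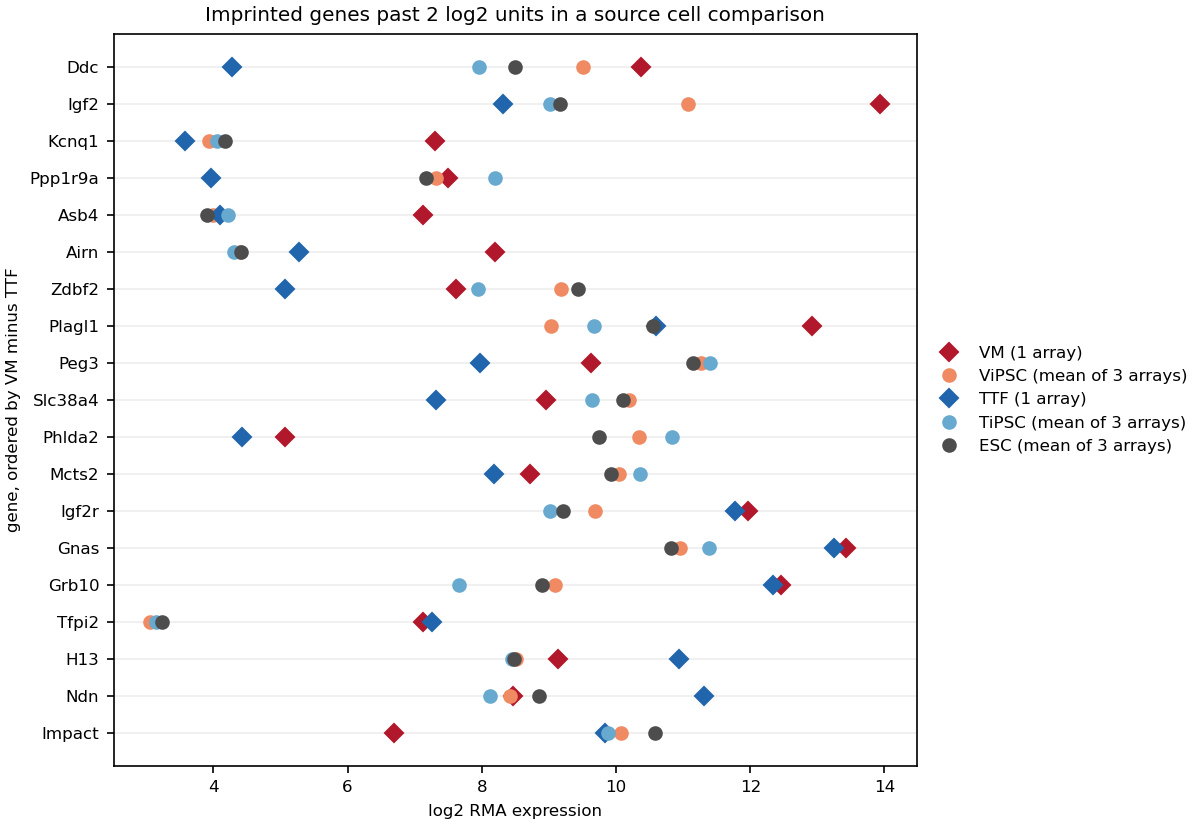
Log2 RMA level (x axis) of the 19 imprinted genes that pass 2 log2 units in at least 1 of the comparisons ViPSC with VM, TiPSC with TTF and VM with TTF; diamonds are the single arrays of VM and TTF, circles are means of 3 arrays of ViPSC, TiPSC and ESC, and genes are ordered by VM minus TTF. Phlda2 is at 4.42 in TTF and 5.06 in VM and at means of 10.34 in ViPSC and 10.83 in TiPSC, and Grb10 runs the other way.

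The 3 ESC arrays were the least alike in imprinted transcripts. Over the 25 genes with a mean of at least 7 in the 9 pluripotent arrays, the median SD within a group was 0.067 for the ViPSC arrays, 0.133 for TiPSC and 0.432 for ESC, beside 0.057, 0.118 and 0.185 for all 7465 genes at that level. In ESC, 7 of the 25 spanned at least 1 log2 unit (28%, beside 7.14% of all genes at that level). In TiPSC, Zdbf2 alone did (4%, beside 1.51%), and in ViPSC 0 of 25 did (beside 0.0402%). The 7 genes in ESC were Grb10, Ppp1r9a, Plagl1, Cdkn1c, Phlda2, Ndn and Gnas. Grb10, Ppp1r9a and Phlda2 were highest in ESC 1 and lowest in ESC 3, as was Gnas with 11.49, 10.55 and 10.41. Cdkn1c was lowest in ESC 3, and Plagl1 and Ndn (8.25, 8.84 and 9.46) were highest there. These arrays also differ in the primitive endoderm markers (ESC 1), in the median of the X chromosome (-0.15 in ESC 1, 0.65 in ESC 2 and ESC 3) and in that of chromosome 11 (ESC 3), whose part in the spread was not tested. Of the 7 genes, Grb10 is on chromosome 11, and how far that chromosome's shift enters its spread was not tested.

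**Figure D4:**
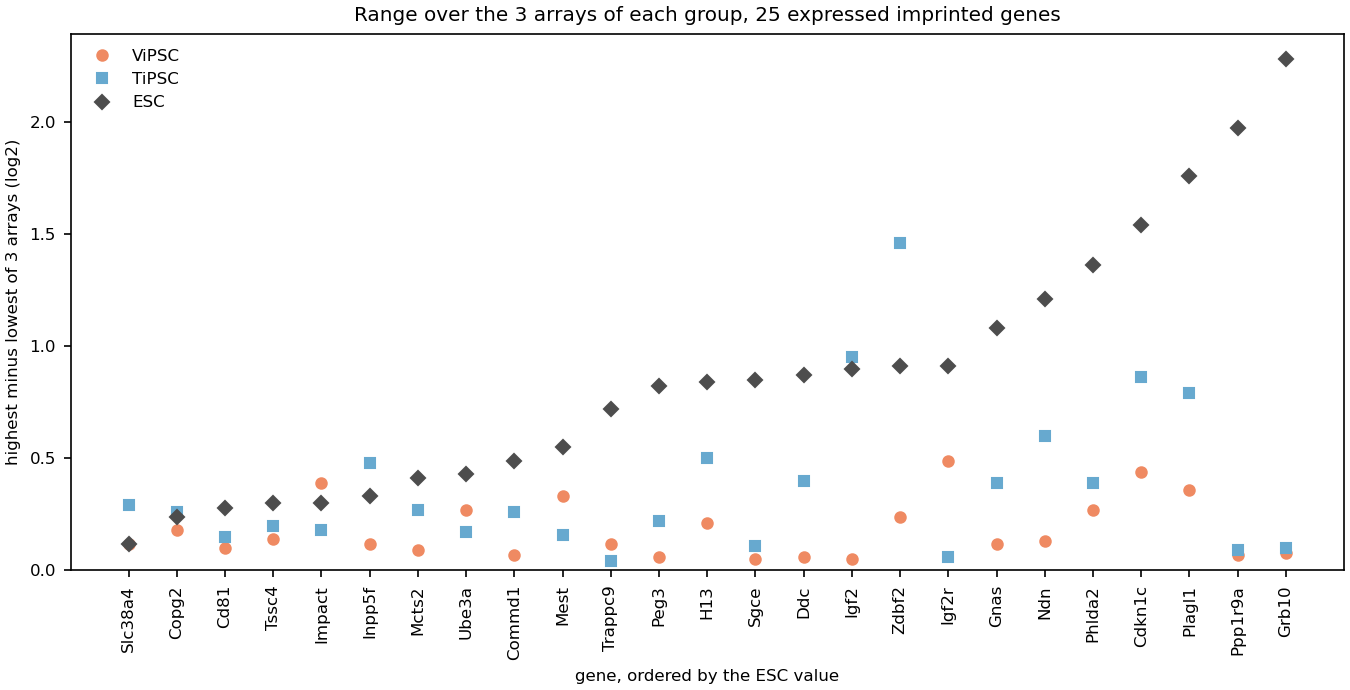
Highest minus lowest log2 RMA level over the 3 arrays of ViPSC (circles), TiPSC (squares) and ESC (diamonds) for the 25 imprinted genes with a mean of at least 7 in the pluripotent arrays, ordered by the ESC value. In ESC 7 genes span at least 1 log2 unit, in TiPSC 1 and in ViPSC 0.

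Transcripts of genes classed as imprint regulators were read from a list of 22 genes, 21 of them measured. Between ViPSC and TiPSC, Dnmt3a, a de novo DNA methyltransferase gene, was higher in ViPSC (0.91 ± 0.20, adjusted p = 0.035), as was the chromatin factor gene Arid4a (1.16 ± 0.25, adjusted p = 0.0293). Zfp445, a zinc finger gene whose protein protects imprints, was lower (-0.43 ± 0.10, adjusted p = 0.0429). These are 3 of 21, beside 5.63% of all genes. Dnmt3a was spread in ViPSC (9.48, 8.64 and 9.28), over 8.14, 8.28 and 8.24 in TiPSC. So was Arid4a (7.34, 6.71 and 7.10), over 6.11, 6.03 and 5.54. Alternatives are not given here for calls from this list or the second one below. Against ESC, 0 of the 21 passed by limma in either comparison, and 3 in ViPSC and 5 in TiPSC had an unadjusted p under 0.05, beside 17.2% and 18.1% of all genes. Of a second list of 49 further imprinted genes and locus neighbours, 40 were measured. Ascl2, a trophoblast regulator gene in the Kcnq1 domain, was higher in ViPSC than in TiPSC (1.01 ± 0.11, adjusted p = 0.00202) and than in ESC (0.58 ± 0.11, adjusted p = 0.0323). It was the only 1 of the 40 called between ViPSC and TiPSC, beside 5.63% of all genes. Against ESC, 1 of the 40 was called higher and 4 lower in ViPSC, beside 2.14% of all genes called. In TiPSC 0 were called higher and 3 lower than in ESC, beside 0.632%. Trophoblast markers summed to 8353 to 9911 in ViPSC, 3528 to 9415 in TiPSC and 3488 to 8317 in ESC. Of these markers, 3 of 10 passed, higher in ViPSC than in TiPSC, beside 3.2% of all genes called higher. Their part in the Ascl2 difference was not tested. Cobl, beside Grb10 on chromosome 11, was lower in ViPSC than in ESC (-0.85 ± 0.17, adjusted p = 0.0411). Meg3, Rian and Mirg of the Dlk1-Dio3 cluster were lower than in ESC in both kinds of induced cell, Rian by -3.58 in ViPSC and -3.59 in TiPSC (adjusted p = 0.00431 and 0.00771).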

How the data were processed

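The authors deposited log2 values from RMA, per the submitters' processing notes, and no version, genome build or probe file is given in the sources used here. No detection calls were used, and precision is limited by how few arrays there are. Of 45101 probe sets, 64 controls, 932 with several symbols and 9160 without a symbol were left out, and each of 18193 genes was represented by its brightest probe set, judged by the mean of the 11 arrays. Chromosomes came from RefSeq (GRCm38.p6), matched by Entrez identifier for 34741 of 34945 probe sets.

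The 9 pluripotent arrays were fitted with limma 3.58.1 in R 4.3.3 (lmFit and eBayes, 1 mean per group, 1 shared spread, two-sided), with Benjamini-Hochberg adjustment over all 18193 genes and a threshold of 0.05. The script was tested on simulated data. Source cells, with 1 array each, were compared without a test. Every listed gene is accounted for: values in every array are given for each gene called in a replicated comparison or called through another of its probe sets, and for some genes near the threshold or spread out within a group, which were chosen after their values were seen. The other listed genes are given by level, and other genes were named only from the 2 lists. The genes, the lists and the markers were chosen with earlier results of these data known. Alternatives are given in the closing section.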

Additional observations from a re-analysis of the deposited data

How the results depend on the processing

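Of 214 values of single genes under the alternatives, 153 passed the threshold, 61 did not, and 0 changed direction. The count of imprinted genes called between ViPSC and TiPSC was 16 of 41 with only the 6 arrays compared in the fit (14.4% of all genes called), and 3 to 14 with 1 array left out (1.14% to 11%). For ViPSC against ESC it was 4 of the 25 still tested with genes of a mean under 7 left out (6.08% of 7465 genes), 1 with only 6 arrays (0.401%), and 0 to 10 with 1 array left out (0.121% to 13.8%). For TiPSC against ESC it was 2 with every probe set tested (0.266% of probe sets), 2 with the mean of all probe sets of a gene (0.357%), 0 with only 6 arrays (0.0055%), and 0 to 16 with 1 array left out (0.066% to 16.7%). The replicate block, with the replicate number as a term, gave 6, 0 and 1 genes for the 3 comparisons (3.42%, 0.566% and 0.0495% of all genes). Under it Igf2 and Ddc did not pass between ViPSC and ESC (adjusted p = 0.0543 and 0.0762), nor Sgce, Magel2 and Impact between TiPSC and ESC (0.0887, 0.0869 and 0.101). Samples that share only a number were not paired by it: the correlations of their deviations ran from -0.125 to 0.118. The mean of all probe sets brought the difference between ViPSC and TiPSC to 1.15 for Igf2, 0.88 for Ddc and -0.49 for Sgce. For the source cells, a limit of 1 log2 unit gave 21 genes for ViPSC against VM, and the mean of all probe sets gave 7 for TiPSC against TTF and 5 for VM against TTF. The share of all genes past the limit was not counted under these settings, so these 3 counts have no background beside them. The other settings left each count within 1.5 times. No value here has a depth: the limit is the 3 arrays per group, the single source arrays, and the compression of RMA below 7. The causes of these shifts were not tested.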
